A study of Mus musculus with 38 samples.

Results

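The acute-phase and STAT3-linked genes described here, 10 of the 55487 genes counted in each library, were followed in mouse glioma cells and in the myeloid cells grown with them. They are the receptor chains Osmr and Il6st, the transcription factors Stat3, Cebpb and Cebpd, the feedback inhibitor Socs3, and the response genes Serpina3n, Lcn2, Saa3 and Steap4. The genes were chosen as a group for the difference between co-cultured and monocultured glioma cells, so their co-culture values in those cells are given as a description, and nothing is supported with the fit of that contrast.

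The study sequenced poly(A) RNA of 38 mouse libraries in 18 groups of 2 or 3 to ask how lack of oxygen changes myeloid cells associated with glioma. GL261 is a mouse glioma cell line, BV2 is a mouse microglial cell line, and BMDM are macrophages grown from the bone marrow of wild-type mice. In the co-culture experiment, each cell type was kept at 21% oxygen (normoxia) or under 0.1% oxygen (hypoxia) for 16 h, either alone (monoculture) or in direct contact with a partner. The panobinostat experiment used BV2 and BMDM monocultures with DMSO at either oxygen level, or in hypoxia with panobinostat at 10 nM, a drug that blocks histone deacetylases. The co-culture experiment gave 8 GL261, 8 BV2 and 10 BMDM libraries, with 3 libraries in each BMDM co-culture group, and the panobinostat experiment gave 6 BV2 and 6 BMDM libraries. BV2 and GL261 are single established lines and stand in for microglia and glioma only as such, and BV2 and BMDM were kept in media with different amounts of serum. The labels of the GL261 co-cultures do not name the partner. Their counts stand in 1 table with those of BV2, and BV2 is taken as the partner here. How the cell types were parted before RNA extraction is not stated in the sources used here. The labels speak of biological replicates only for the GL261 and BV2 libraries of the co-culture experiment, so for the others p-values measure the spread between the listed samples, which may be technical.

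Cytokines of the IL-6 family, among them IL-6, LIF, oncostatin M and IL-11, signal through a shared receptor chain, gp130, which Il6st encodes. Oncostatin M binds gp130 together with the chain encoded by Osmr. The receptors activate JAK kinases, which phosphorylate STAT3. STAT3 then raises a set of target genes that includes Socs3, whose product blocks the receptor and the kinases, and Stat3 itself. In liver this pathway works with the C/EBP factors and with NF-kB to raise the acute-phase proteins. In brain, reactive astrocytes are known for Serpina3n and Lcn2.

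Libraries held 9634700 to 27238933 counts. Stat3, Cebpb and Cebpd overlap a gene on the opposite strand (Stat5a, Tmem189 and Spidr), and use of strand in counting is not given in the sources used here. Levels are given as CPM, the count of a gene for every 1000000 counts of its library, and levels of different genes are compared only after division by exon length in kilobases. Changes are log2 differences with their standard error (SE) from the quasi-likelihood test of edgeR, and a gene is called changed at a Benjamini-Hochberg adjusted p under 0.05 over all genes tested. Of the markers checked against the labels, 19 macrophage genes summed to 4691 to 6368 CPM in the BV2 monocultures of the co-culture experiment and to 5.46 to 13.2 CPM in GL261 monocultures, where 11 glial markers summed to 1934 to 3069 CPM. Some BMDM libraries stood apart from the others of their group. These were both co-culture libraries with the replicate number 2, and the DMSO libraries numbered 1. They had high Saa3, Lcn2 and interleukin genes, and results that rest on them are given with and without them or library by library. The BMDM panobinostat library numbered 1 also had more Saa3, Il6 and Il1b than that numbered 2. The BMDM libraries of the panobinostat experiment differed from those of the co-culture experiment in a further way. In them, 10 stromal marker genes, a list drawn up after the data had been seen, summed to 2932 to 25751 CPM, against 86.6 to 664 CPM in the co-culture experiment.

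Each member matched 1 Ensembl gene. Its promoter, the 250 bases before the start site in RefSeq on build GRCm38.p6, was listed for 9 of the 10 genes, all but Cebpd. Each promoter was searched on both strands for 3 motifs that do not overlap one another in sequence: the STAT motif TTCNNNGAA, the C/EBP motif TTGCNNAA and a 10-base NF-kB motif. The STAT motif was found in the promoters of Socs3 and Steap4 and in 7.02% of 32851 promoters. The C/EBP motif was found in those of Lcn2, Saa3 and Steap4 and in 9.564% of promoters. The NF-kB motif was found in no member and in 0.3562% of promoters. The promoters of Serpina3n and Socs3 are shown because Serpina3n had the largest difference between co-culture and monoculture in GL261 among the members, and Socs3 is a classical STAT3 target whose promoter holds the STAT motif. The Serpina3n promoter lies at chr12:104406458-104406707 on the plus strand and holds none of the 3 motifs. The Socs3 promoter lies at chr11:117969367-117969616 on the minus strand, and capitals mark its STAT motif, 154 to 146 bases before the start.
Serpina3n: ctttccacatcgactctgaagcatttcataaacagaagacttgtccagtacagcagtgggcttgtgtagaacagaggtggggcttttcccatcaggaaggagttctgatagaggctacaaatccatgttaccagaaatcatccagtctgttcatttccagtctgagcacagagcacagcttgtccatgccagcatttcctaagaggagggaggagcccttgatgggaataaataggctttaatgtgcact
Socs3: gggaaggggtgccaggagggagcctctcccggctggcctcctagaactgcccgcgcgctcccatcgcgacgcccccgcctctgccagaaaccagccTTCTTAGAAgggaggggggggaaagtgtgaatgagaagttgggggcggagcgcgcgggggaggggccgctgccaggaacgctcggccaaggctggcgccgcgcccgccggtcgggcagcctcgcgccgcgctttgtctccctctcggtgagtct

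In GL261 cells, co-culture went with more RNA of the secreted protease inhibitor gene Serpina3n, of Socs3 and of Stat3 in every library at both oxygen levels. Cebpd also lay higher in every co-culture library at each oxygen level, with wider errors. Osmr was higher in co-culture in hypoxia, and Lcn2, Saa3 and Steap4 were scarcely detected. Serpina3n (ENSMUSG00000021091, chromosome 12, 104406729 to 104414329) stood at 109 and 113 CPM in normoxic monoculture and at 454 and 328 CPM in normoxic co-culture. In hypoxia it stood at 37.5 and 30.1 CPM in monoculture and at 225 and 183 CPM in co-culture. The co-culture libraries lay above the monoculture libraries at each oxygen level without overlap, and even the hypoxic co-cultures lay above the normoxic monocultures. The log2 difference between co-culture and monoculture was 1.87 (SE 0.20) in normoxia and 2.65 (SE 0.21) in hypoxia. Serpina3n belongs to a cluster of closely similar genes, among which reads may have been split in counting.

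Socs3 (ENSMUSG00000053113, chromosome 11, 117966079 to 117970047) had 22.8 and 18.8 CPM in normoxic monoculture and 46.9 and 35.8 CPM in normoxic co-culture. In hypoxia it had 25.3 and 24.9 CPM alone and 64.9 and 60.1 CPM in co-culture. The groups did not overlap at either oxygen level, and the log2 differences were 1.04 (SE 0.17) and 1.37 (SE 0.17). Stat3 (ENSMUSG00000004040, chromosome 11, 100885098 to 100939540), the gene of the transcription factor itself, had 93.8 and 92.3 CPM in normoxic monoculture and 154 and 132 CPM in normoxic co-culture. In hypoxia its levels were 122 and 100.5 CPM alone and 289.8 and 222 CPM in co-culture. Its groups did not overlap either, and the log2 differences were 0.67 (SE 0.18) in normoxia and 1.26 (SE 0.18) in hypoxia.

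The receptor chain Osmr (ENSMUSG00000022146, chromosome 15, 6813577 to 6874969) separated the cultures at 1 of the 2 oxygen levels. In normoxia the libraries overlapped, with 37.1 and 32.4 CPM in monoculture and 44.8 and 27.2 CPM in co-culture, a log2 difference of 0.10 (SE 0.26). In hypoxia they did not overlap, with 123 and 91.5 CPM alone and 279 and 194 CPM in co-culture, a log2 difference of 1.19 (SE 0.26). Il6st, the gene of gp130 (ENSMUSG00000021756), showed no such separation in hypoxia. It had 69.3 and 70.5 CPM alone and 62.8 and 55.9 CPM in co-culture in normoxia. In hypoxia the values were 129 and 83.4 CPM alone and 129 and 103 CPM in co-culture. The log2 differences of Il6st were -0.19 (SE 0.21) and 0.17 (SE 0.21).

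The C/EBP genes were noisier. Cebpd (ENSMUSG00000071637) had 21.8 and 11.7 CPM in normoxic monoculture, 49.4 and 22.3 CPM in normoxic co-culture, 16.1 and 12.9 CPM in hypoxic monoculture, and 53.6 and 19.7 CPM in hypoxic co-culture. Its co-culture libraries lay above the monocultures, narrowly in normoxia, and the log2 differences of 1.14 (SE 0.47) and 1.39 (SE 0.47) had wide errors. Cebpb (ENSMUSG00000056501) had 36.1 and 58.1 CPM alone and 64.3 and 73.2 CPM in co-culture in normoxia. In hypoxia its co-cultures, at 175 and 194 CPM, lay between the 2 monocultures, at 81.1 and 242 CPM. The log2 differences of Cebpb were 0.60 (SE 0.36) and 0.28 (SE 0.35).

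The remaining response genes were near or below what can be counted in GL261. Saa3 (ENSMUSG00000040026), a serum amyloid A gene, ranged from 0.555 to 1.17 CPM over the 8 libraries, with log2 differences of 0.23 (SE 0.49) in normoxia and -0.27 (SE 0.46) in hypoxia. Lcn2 (ENSMUSG00000026822), the siderophore-binding lipocalin, had 0 to 15 counts in a library, at most 0.593 CPM. Steap4 (ENSMUSG00000012428), a membrane metalloreductase, had 1 count in 1 of the 8 libraries and 0 in the others. Lcn2 and Steap4 had too few counts to enter the test in GL261, so no change of either was tested there.

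For orientation only, the adjusted p was under the threshold for 2 of the 8 members that entered the fit in normoxia, where it was for 0.514% of all genes in either direction, and for 4 of 8 in hypoxia, where it was for 1.39%. The median log2 difference of the 8 was 0.64 in normoxia and 1.23 in hypoxia, against -0.00092 and -0.0029 for all genes. Since the members were chosen on this contrast, nothing is read from these counts or from these medians. Whether the difference between cultures itself depended on oxygen was called for none of the 8 members by the interaction term of edgeR (3 at an unadjusted p under 0.05), and for 0% of all genes. The interaction term rests on the same libraries on which the members were chosen.

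**Figure D1:**
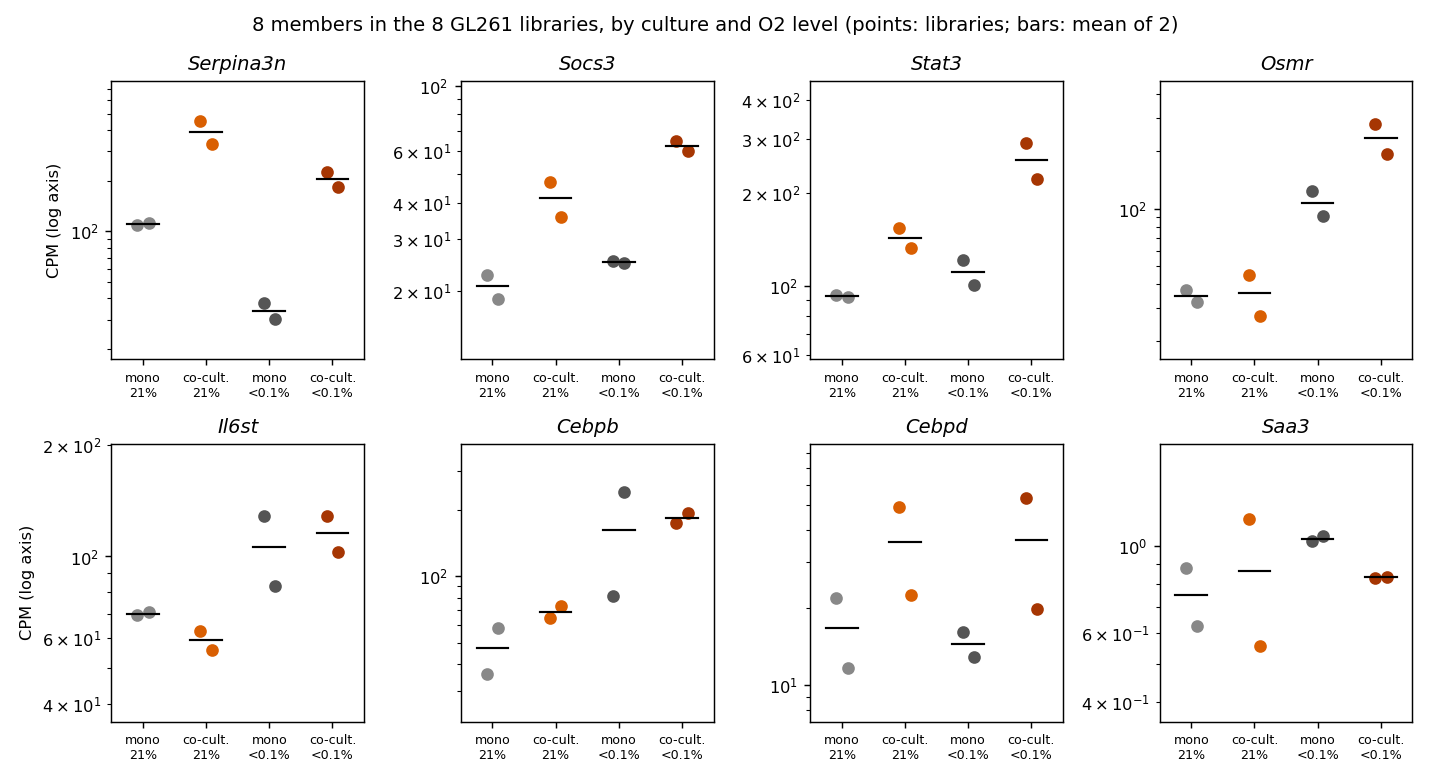
Levels of 8 members in the 8 GL261 libraries, in CPM on a log axis, by culture and oxygen level. Points are libraries and bars are the mean of 2. Serpina3n, Socs3 and Stat3 lie higher in co-culture than in monoculture at both oxygen levels, and Osmr lies higher in hypoxic co-culture at 194 and 279 CPM.

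Per kilobase of exon, Serpina3n led the members in normoxic GL261 monoculture with 53.7 CPM per kb, followed by Cebpb with 31.3, Stat3 with 9.77, Socs3 with 7.19, Il6st with 6.30, Cebpd with 4.47 and Osmr with 2.87 CPM per kb. Saa3 stood at 0.288 CPM per kb. In hypoxic co-culture Cebpb, at 117 and 129 CPM per kb, lay above Serpina3n, at 109 and 88.6 CPM per kb. Osmr had moved from 2.87 to 19.5 CPM per kb, next to Socs3 with 21.6 and Stat3 with 26.8 CPM per kb.

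The amount of BV2 RNA in the GL261 co-culture libraries was small beside these differences. The share of BV2 RNA was estimated from 121 genes with at least 20 CPM in BV2 monoculture that were at least 100-fold higher there than in GL261. It was 0.915% and 0.630% in the normoxic GL261 co-cultures and 0.256% and 0.218% in the hypoxic ones. Multiplied by the level in the BV2 co-cultures, these shares predict at most 0.0304 CPM of Serpina3n from BV2 in normoxia and 0.0128 CPM in hypoxia. The measured excess over monoculture was 217 to 343 CPM and 149 to 191 CPM. For Socs3 the prediction was at most 0.207 CPM against an excess of 15.02 to 26.1 CPM in normoxia, and at most 0.0623 CPM against 34.9 to 39.8 CPM in hypoxia. For Stat3 it was at most 0.731 CPM against 39.4 to 60.7 CPM, and at most 0.402 CPM against 111 to 179 CPM. For Osmr in hypoxia it was at most 0.0143 CPM against 86.6 to 171 CPM. Of the 19 macrophage markers, 11 to 15 were above 3 counts in the GL261 co-cultures, where they summed to 11.9 to 57.0 CPM.

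Of all genes, 0.514% were called between co-culture and monoculture of GL261 in normoxia and 1.39% in hypoxia. The called genes of the wider pathway lists are given beside these shares. Of 11 IL-6 family ligand and receptor genes tested, none was called in normoxia and 1 in hypoxia, Il11, whose levels were 3.56 and 1.67 CPM alone and 10.9 and 9.72 CPM in co-culture. Of 18 JAK, STAT and inhibitor genes, none was called in normoxia. Of 20 other STAT3 target genes, 1 was higher in normoxia, Fos, and 2 in hypoxia, Fos and the astrocyte filament gene Gfap. None of 7 other acute-phase genes and none of 3 other C/EBP genes was called at either oxygen level, and of 17 NF-kB and IL-1 genes only Il1rap was, in hypoxia. The median log2 differences of these 6 lists lay between -0.14 and 0.24 in normoxia and between -0.10 and 0.30 in hypoxia.

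By Pearson's correlation of log2(CPM + 1) over the 8 GL261 libraries, among 10224 genes with a mean of at least 5 CPM, the genes most like Serpina3n were Ifit3b and Ifit3 (both r = 0.98), Gfap (r = 0.97), Hmga1 and Trim30d (both r = 0.96). Ifit3b, Ifit3 and Trim30d are interferon-induced genes. Among the members, Cebpd (r = 0.71), Socs3 (r = 0.62) and Stat3 (r = 0.50) followed it less closely, and Osmr (r = -0.20), Il6st (r = -0.41) and Cebpb (r = -0.24) did not. The points share 4 groups of libraries, so these values describe the group pattern.

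Hypoxia alone lowered Serpina3n and raised Osmr, Il6st and Cebpb in GL261 monoculture. Serpina3n fell from 109 and 113 CPM to 37.5 and 30.1 CPM (log2 change -1.65, SE 0.20, edgeR adjusted p = 8.16e-05). Osmr rose from 37.1 and 32.4 to 123 and 91.5 CPM (1.69, SE 0.26, adjusted p = 0.000441). Cebpb rose from 36.1 and 58.1 to 81.1 and 242 CPM (1.81, SE 0.36, adjusted p = 0.00199). Groups did not overlap for any of these 3 genes, though the hypoxic Cebpb libraries lay far apart. Il6st rose by 0.67 (SE 0.21, adjusted p = 0.0233), a call lost in 3 of 8 fits with 1 library left out, those without either normoxic monoculture (adjusted p = 0.0871 and 0.0796) and without hypoxic monoculture replicate 1 (adjusted p = 0.235). Stat3 differed by 0.31 (SE 0.18, adjusted p = 0.173), Socs3 by 0.32 (SE 0.17, adjusted p = 0.151) and Cebpd by -0.16 (SE 0.48, adjusted p = 0.813). The 4 calls among 8 members tested compare with 44.6% of all genes.

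In co-culture, hypoxia changed 6 of the 8 members tested in GL261, where 52.4% of all genes were called. Serpina3n fell by 0.88 (SE 0.19, edgeR adjusted p = 0.00266), from 454 and 328 to 225 and 183 CPM. Osmr rose by 2.78 (SE 0.27, adjusted p = 1.21e-05), Cebpb by 1.48 (SE 0.36, adjusted p = 0.00454) and Il6st by 1.03 (SE 0.21, adjusted p = 0.00185). Stat3 rose by 0.90 (SE 0.18, adjusted p = 0.0013) and Socs3 by 0.66 (SE 0.17, adjusted p = 0.00644), the latter lost without normoxic co-culture replicate 2 (adjusted p = 0.0692). The libraries of both hypoxia comparisons in GL261 are those on which the members were chosen. Serpina3n thus stood highest in normoxic co-culture and Osmr in hypoxic co-culture.

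The hypoxia response of the wider pathway in GL261 monoculture included its ligands. Lif rose from 0.413 and 0.0567 CPM to 19.9 and 9.80 CPM (log2 change 5.97, edgeR adjusted p = 0.000178), and Il6ra, the IL-6-binding receptor chain, from 5.22 and 5.33 to 20.9 and 15.3 CPM (1.84, adjusted p = 9.02e-05). Of 11 IL-6 family genes tested, 4 rose and 1 fell, with a median of 0.54 against -0.032 over all genes. In this comparison 44.6% of all genes were called in either direction, and the IL-6 family count lay near that share. Among 20 other STAT3 target genes 11 rose and 3 fell (median 0.67), and among 17 NF-kB and IL-1 genes 12 rose and none fell (median 1.67). Of 18 JAK, STAT and inhibitor genes 6 rose and 4 fell, of 7 other acute-phase genes 3 rose and 1 fell, and of 3 C/EBP genes 2 rose and 1 fell. Serpina3n thus fell where more of the listed STAT3 and NF-kB genes rose than fell.

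In BV2 co-cultures Serpina3n and Osmr were called higher than in BV2 monocultures, at levels of a few CPM that came near those predicted from GL261 RNA in the same libraries. Serpina3n had 0.0424 and 0 CPM in normoxic BV2 monoculture and 4.28 and 2.36 CPM in co-culture, and 0.0571 and 0.108 CPM against 5.29 and 4.68 CPM in hypoxia. The ratio of summed counts, 101 against 1 in normoxia, was 145 (exact 95% interval 25.4 to 5775, counting error only, edgeR adjusted p = 1.26e-05), and in hypoxia, 181 against 3, it was 60.0 (20.2 to 294, adjusted p = 1.78e-06). Osmr was 0 in all 4 BV2 monocultures, 0.738 and 0.384 CPM in normoxic co-culture and 7.24 and 3.95 CPM in hypoxic co-culture. Set against 3 counts in each monoculture library, it was at least 4.26-fold higher in normoxia (edgeR adjusted p = 0.00924). In hypoxia it was at least 33.6-fold higher (adjusted p = 5.11e-06). The normoxic call was lost without normoxic monoculture replicate 2. The share of GL261 RNA in these BV2 libraries, from 230 genes, was 0.951% and 0.568% in normoxia and 2.07% and 2.36% in hypoxia. It predicts 2.22 to 3.72 CPM of Serpina3n in normoxia against a measured excess of 2.33 to 4.26 CPM, and 4.23 to 4.81 CPM in hypoxia against 4.60 to 5.21 CPM. For Osmr it predicts 0.205 to 0.343 CPM against 0.384 to 0.738 CPM in normoxia, and 4.90 to 5.57 CPM against 3.95 to 7.24 CPM in hypoxia. These predictions take the level in co-cultured GL261. With the level in GL261 monoculture, Serpina3n was predicted at only 0.630 to 1.06 CPM in normoxia and 0.700 to 0.797 CPM in hypoxia, and Osmr at 2.23 to 2.53 CPM in hypoxia.

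Of the other members in BV2, co-culture lowered Il6st in normoxia, from 77.6 and 111 CPM to 60.4 and 58.3 CPM (log2 change -0.72, SE 0.16, edgeR adjusted p = 0.00843). The call was lost without normoxic monoculture replicate 2 (-0.47, adjusted p = 0.141). Lcn2 was called higher in hypoxic co-culture, at 0.702 and 0.677 CPM against 0 and 0.108 CPM, a ratio of 12.4 (exact 95% interval 3.10 to 108) on 25 counts against 2 (adjusted p = 0.0104). GL261 RNA predicts 0.00787 to 0.00895 CPM of it. The Lcn2 call was lost without either hypoxic co-culture (adjusted p = 0.0547 and 0.0595), without hypoxic monoculture replicate 1 (adjusted p = 0.130) and by DESeq2 (adjusted p = 0.138). Stat3 did not separate in BV2 co-culture, with log2 differences of -0.09 (SE 0.11, adjusted p = 0.62) and -0.02 (SE 0.10, adjusted p = 0.913), nor did Socs3, with 0.06 (SE 0.17, adjusted p = 0.839) and -0.34 (SE 0.17, adjusted p = 0.196). In normoxia 3 of 9 members tested were called, where 14.9% of all genes were, and in hypoxia 3 of 9, where 15.7% were. A fit without genes at least 4-fold higher in GL261 monoculture leaves out Serpina3n and Osmr by that rule, so it does not test their calls. In it 1 member remained called in each, Il6st in normoxia and Lcn2 in hypoxia. Among the other acute-phase genes, 7 of 10 tested rose in BV2 in normoxic co-culture and none fell (median 1.62), among them Il1rn, from a mean of 8.54 to 28.7 CPM, and C3, from 47.5 to 90.7 CPM. GL261 monocultures had no Il1rn and at most 0.454 CPM of C3 in normoxia. Of the other 5, Cp and Lbp averaged 226 and 110.1 CPM in normoxic GL261 monoculture and 5.51 and 0.928 CPM in the BV2 co-cultures, and the part of GL261 RNA in this count was not tested.

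**Figure D2:**
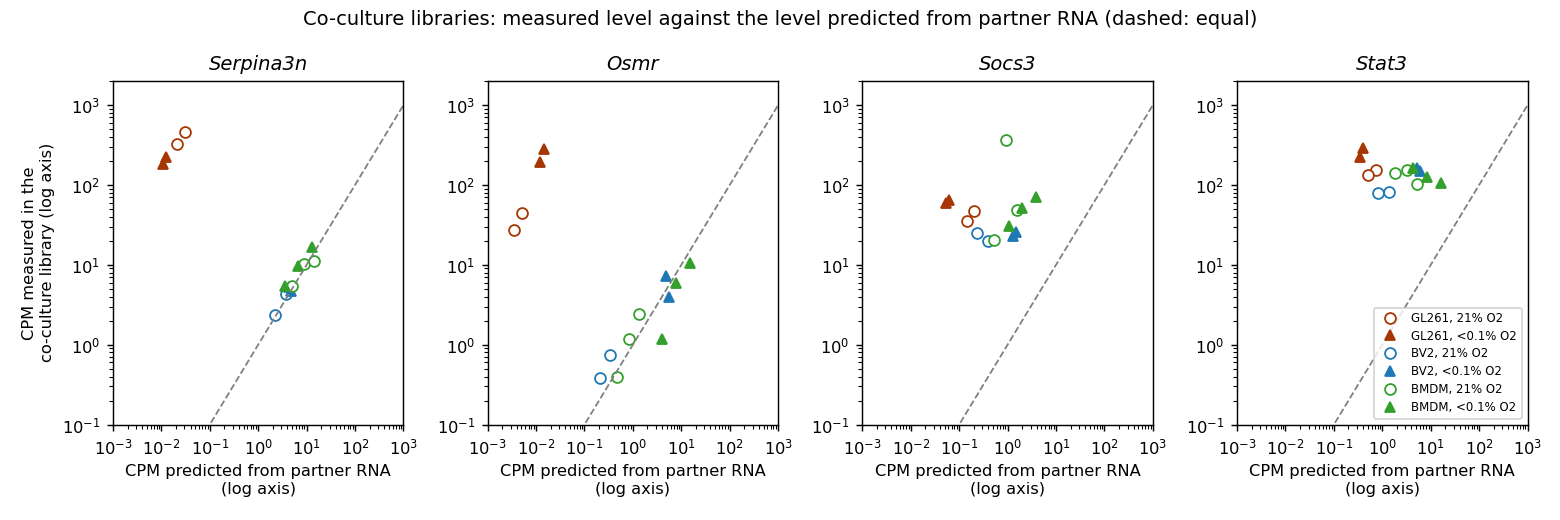
CPM measured in each co-culture library (vertical, log axis) against the CPM predicted from its share of partner RNA and the level in the partner co-culture (horizontal, log axis) for 4 members. The dashed line marks equality. In BV2 and BMDM libraries Serpina3n and most Osmr points lie near the line, while Socs3 and Stat3 lie above it. In GL261 libraries all 4 genes lie far above it. Points show the total level, so a gene also present in monoculture lies above the line without any rise in co-culture, as Osmr in normoxic GL261.

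Serpina3n was also called higher in BMDM co-cultures. It was 0 in all 4 BMDM monocultures, 5.49, 10.2 and 11.2 CPM in normoxic co-culture and 5.36, 9.64 and 16.6 CPM in hypoxic co-culture. Set against 3 counts in each monoculture library, it was at least 47.1-fold higher in normoxia (edgeR adjusted p = 0.00561). In hypoxia it was at least 54.9-fold higher (adjusted p = 0.00416). Both calls were lost without either of the monoculture libraries (adjusted p = 0.0959 and 0.0765 in normoxia, 0.0507 and 0.0603 in hypoxia). The share of GL261 RNA, from 146 genes, was 1.29%, 2.29% and 3.70% in the normoxic and 1.72%, 3.22% and 6.28% in the hypoxic co-cultures, in the order of the replicate numbers. It predicts 5.07 to 14.5 CPM of Serpina3n in normoxia and 3.51 to 12.8 CPM in hypoxia. Osmr, at 0.392, 1.17 and 2.42 CPM in normoxic and 1.17, 5.88 and 10.4 CPM in hypoxic co-culture, was predicted at 0.467 to 1.33 CPM and 4.06 to 14.8 CPM. With the level in GL261 monoculture, Serpina3n was predicted at 1.44 to 4.10 CPM in normoxia and 0.581 to 2.12 CPM in hypoxia. All these predictions use GL261 cells grown alone or with BV2, not with BMDM. By edgeR Osmr was not called in either comparison (adjusted p = 0.205 and 0.062), and by DESeq2 it was in both (adjusted p = 0.0282 and 0.00372). Serpina3n was the only 1 of 9 members called in each comparison, where 1.64% of all genes were called in normoxia and 7.11% in hypoxia. The fit without genes at least 4-fold higher in GL261 monoculture leaves Serpina3n out by that rule, so it does not test this call. No other member was called in it.

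Hypoxia raised Stat3 in BV2 in each of the 3 settings measured. In monoculture Stat3 went from 79.4 and 84.3 CPM to 159 and 162 CPM (log2 change 1.02, SE 0.11, edgeR adjusted p = 4.24e-07). In co-culture it went from 81.5 and 78.3 to 165 and 149 CPM (1.09, SE 0.11, adjusted p = 2.12e-07), and with DMSO from 92.0 and 102 to 194 and 179 CPM (1.08, SE 0.21, adjusted p = 0.00336). Groups did not overlap in any setting, and each call held in every fit with 1 library left out. The rise in BV2 monoculture exceeded that in GL261 monoculture by 0.81 (SE 0.21, adjusted p = 0.0051, interaction term), where the median of all genes was 0.15. This difference was lost without GL261 hypoxic monoculture replicate 2 (0.52, adjusted p = 0.0619). Stat3 was the 1 member of 9 called in this comparison, which called 37.4% of all genes.

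Cebpb, a C/EBP factor induced by inflammatory cytokines, rose with hypoxia in BV2 as well. In monoculture it rose by 0.85 (SE 0.15, edgeR adjusted p = 0.000103), from 232 and 235 to 443 and 371 CPM. In co-culture it rose by 0.62 (SE 0.15, adjusted p = 0.00158) and with DMSO by 1.06 (SE 0.23, adjusted p = 0.0066). Cebpd moved the other way. It fell from 16.3 and 13.4 to 5.60 and 4.85 CPM in BV2 monoculture (-1.46, SE 0.18, adjusted p = 2.32e-06), by 0.91 in co-culture (SE 0.18, adjusted p = 0.000347) and by 1.00 with DMSO (SE 0.29, adjusted p = 0.0212), the last lost without either normoxic DMSO library (adjusted p = 0.0742 and 0.0521) or hypoxic DMSO replicate 1 (adjusted p = 0.140).

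Socs3 rose in BV2 monoculture from 17.1 and 24.9 to 29.4 and 32.6 CPM (0.61, SE 0.17, edgeR adjusted p = 0.00429), lost without normoxic monoculture replicate 1 (0.37, adjusted p = 0.0907), and with DMSO from 17.7 and 20.6 to 32.5 and 35.7 CPM (0.96, SE 0.21, adjusted p = 0.00605). In co-culture its difference was 0.21 (SE 0.17, adjusted p = 0.276). Il6st had no constant direction, with -0.03 (SE 0.16, adjusted p = 0.866) in monoculture, a rise of 0.58 (SE 0.16, adjusted p = 0.00481) in co-culture and a fall of 0.72 (SE 0.23, adjusted p = 0.0323) with DMSO. The fall was lost in 5 of 6 fits with 1 library left out, all but that without normoxic DMSO replicate 2, and the rise without hypoxic co-culture replicate 1 (adjusted p = 0.118). Saa3, which BV2 carried at 10.9 and 12.8 CPM, rose to 16.2 and 15.7 CPM in hypoxic monoculture (0.48, SE 0.16, adjusted p = 0.0149), lost without monoculture replicate 1 of either oxygen level (adjusted p = 0.122 and 0.0503). With DMSO it differed by -0.15 (SE 0.36, adjusted p = 0.76).

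Among 9 members tested in BV2 monoculture 5 were called, where 61.9% of all genes were. In BV2 co-culture 7 of 9 were called against 67.3% of all genes, which include Serpina3n and Osmr at levels near those predicted from GL261 RNA and Lcn2 on 25 counts against 4. The Serpina3n call (adjusted p = 0.0421) held in 3 of 8 fits with 1 library left out and the Lcn2 call in 6 of 8, and DESeq2 made neither. With DMSO 5 of 6 were called against 37.5% of all genes. The difference between the hypoxia effects in co-culture and in monoculture was called for none of 9 members by edgeR in BV2 (2 at an unadjusted p under 0.05, none by DESeq2), where 2.19% of all genes were called.

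In BMDM the spread was wider. Il6st rose with hypoxia from 65.2 and 72.8 to 98.8 and 118 CPM in monoculture (log2 change 0.91, SE 0.23, edgeR adjusted p = 0.0155) and from 55.9, 55.9 and 35.5 to 90.5, 74.9 and 71.2 CPM in co-culture (0.80, SE 0.19, adjusted p = 0.00707). Groups did not overlap. The second call held in each of 10 fits with 1 library left out, and the first was lost without either normoxic monoculture (adjusted p = 0.138 and 0.0828) and without hypoxic monoculture replicate 2 (adjusted p = 0.132). Cebpb stood at 309 and 265 CPM in normoxic and at 609.7 and 601 CPM in hypoxic monoculture (1.33, SE 0.48, adjusted p = 0.0645). In co-culture it stood at 299, 616 and 899.7 CPM in normoxia and at 1116, 805 and 2257 CPM in hypoxia (1.29, SE 0.39, adjusted p = 0.0238), with overlapping groups but higher in hypoxia in each of the 3 replicate numbers, and a call lost in 3 of 10 such fits, those without normoxic co-culture replicate 1 or 2 or hypoxic co-culture replicate 3 (adjusted p = 0.0679, 0.0562 and 0.104). With the replicate number as a block, which treats these co-cultures as paired, Cebpb rose by 1.28 (adjusted p = 0.0023), and the same 3 members were called. Osmr rose in co-culture (2.29, SE 0.73, adjusted p = 0.0312), lost without normoxic co-culture replicate 1 or 2 or hypoxic co-culture replicate 2 or 3 (adjusted p = 0.0624 to 0.122), at levels near those predicted from GL261 RNA. Stat3 differed by 0.55 (SE 0.24, adjusted p = 0.117) in monoculture and 0.11 (SE 0.19, adjusted p = 0.685) in co-culture.

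In BMDM monoculture 1 of 9 members was called where 23.9% of all genes were, and in co-culture 3 of 9 where 34.8% were. The co-culture libraries share the estimate of spread. In a fit of the 4 monocultures alone, 7 members were called, which added Stat3 (0.53, adjusted p = 0.00207), Cebpb (1.31, adjusted p = 4.47e-05), Socs3 (0.92, adjusted p = 0.00181), Saa3 (1.92, adjusted p = 0.0280), Lcn2 (adjusted p = 0.00439) and a fall of Cebpd by 0.96 (adjusted p = 0.00563). Saa3 stood at 2.35 and 3.20 CPM in normoxic and at 14.8 and 3.20 CPM in hypoxic monoculture, so 1 library carried its difference. The hypoxia effects in BMDM co-culture and monoculture were called different for none of 9 members by edgeR (none at an unadjusted p under 0.05, none by DESeq2) and for 0% of all genes. With DMSO, hypoxia changed none of 8 members in BMDM by edgeR (1 at an unadjusted p under 0.05, Il6st, and none by DESeq2), where 0.483% of all genes were called. With the replicate block, which treats these libraries as paired, none was called either, where 14.3% of all genes were.

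**Figure D3:**
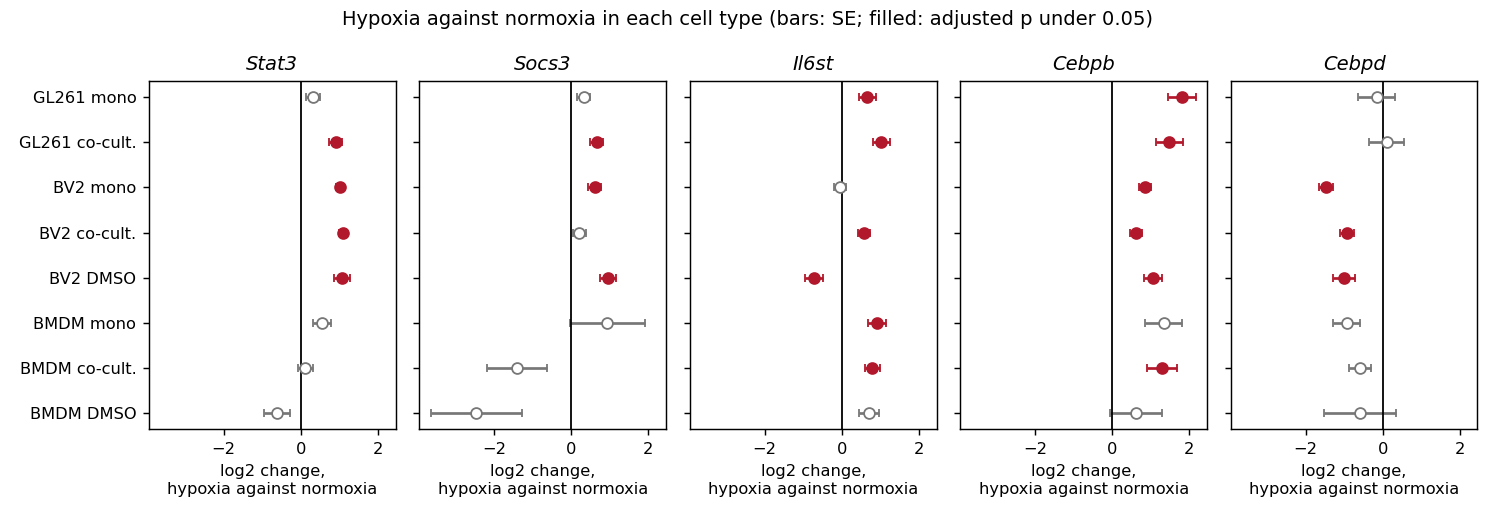
Log2 change from normoxia to hypoxia for 5 members in the 8 comparisons of cell type and culture, with SE as bars, and filled points where the edgeR adjusted p was under 0.05. Stat3 lies near 1 in all 3 BV2 settings, Cebpb lies above 0 in every comparison, and Cebpd lies below 0 in BV2 and BMDM.

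Saa3, Lcn2 and Socs3 varied more between BMDM libraries of 1 group than between groups. Saa3 stood at 10.5, 3183 and 21.1 CPM in normoxic co-culture and at 12.5, 2199.5 and 51.0 CPM in hypoxic co-culture. With DMSO it stood at 5805 and 43.2 CPM in normoxia and 1599 and 28.1 CPM in hypoxia, and with panobinostat at 293 and 74.4 CPM. In each co-culture group replicate 2 was far above the others, and with DMSO replicate 1 was. Lcn2 followed the same libraries, with 1.44, 173 and 0.807 CPM and 3.80, 1641 and 20.4 CPM in co-culture, and 113 and 4.29 CPM and 966 and 8.72 CPM with DMSO. Socs3 did so in normoxia, with 20.2, 366 and 48.0 CPM in co-culture and 379.9 and 30.9 CPM with DMSO, but not in hypoxic co-culture, with 30.3, 52.2 and 70.2 CPM. None of the 3 was called in any BMDM comparison of co-culture with monoculture, also with both libraries numbered 2 left out. The hypoxia difference of Saa3 in co-culture, -0.33 (SE 1.85, edgeR adjusted p = 0.908), became 5.80 (adjusted p = 0.0485) without normoxic co-culture replicate 2. Reads of Saa3 may be split with other serum amyloid A genes.

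The same libraries had more Il1b, the gene of interleukin-1 beta. It stood at 3.59, 269.9 and 3.73 CPM in normoxic co-culture. With DMSO it stood at 378 and 3.53 CPM in normoxia and at 195 and 1.56 CPM in hypoxia. In hypoxic co-culture replicate 2 lay less far above the others, with Il1b at 53.5, 137 and 83.0 CPM. Il6 stood at 7.41, 147 and 18.5 CPM in hypoxic co-culture and at 71.9 and 0.104 CPM with DMSO in hypoxia, and Cxcl1, a neutrophil chemokine, at 14.0, 277 and 47.4 CPM and at 322 and 2.59 CPM. With panobinostat replicate 1 also lay above replicate 2, with Il1b at 21.5 and 4.74 CPM, Il6 at 18.9 and 0.327 CPM and Cxcl1 at 90.8 and 3.76 CPM. Of 10 neutrophil markers, at most 2 were above 3 counts in any BMDM library. Ly6g and Retnlg were at 0 in all 16, S100a9 in 15, but the summed list was higher in some of the libraries that stand apart. It was 0.457, 19.6 and 1.31 CPM in normoxic co-culture and 13.5 and 1.51 CPM with DMSO in normoxia, against 0.390, 0.889 and 0.690 CPM in hypoxic co-culture and 1.46 and 1.04 CPM with DMSO in hypoxia. The sum of 19.6 CPM came with 1 of the 10 markers above 3 counts and that of 13.5 CPM with 2, so these sums rest on few genes. Dcn, 1 gene of the stromal list, also moved with Saa3 and Lcn2, at 0.0653, 9.31 and 0.505 CPM in normoxic and 0.0974, 18.0 and 0.172 CPM in hypoxic co-culture. With DMSO Dcn stood at 4.93 and 0.693 CPM in normoxia and 5.02 and 1.35 CPM in hypoxia. The sum of the 10 stromal markers did not follow Dcn in co-culture, at 93.9, 149 and 255 CPM in normoxic and 86.6, 197 and 664 CPM in hypoxic co-culture. With DMSO in normoxia the sum was 25751 and 22902 CPM. With DMSO in hypoxia it ran opposite to Dcn, at 2932 and 14976 CPM, as did Col1a1, a collagen gene, at 1514 and 8411 CPM. The part of other cells in the Saa3 and Lcn2 levels was not tested.

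**Figure D4:**
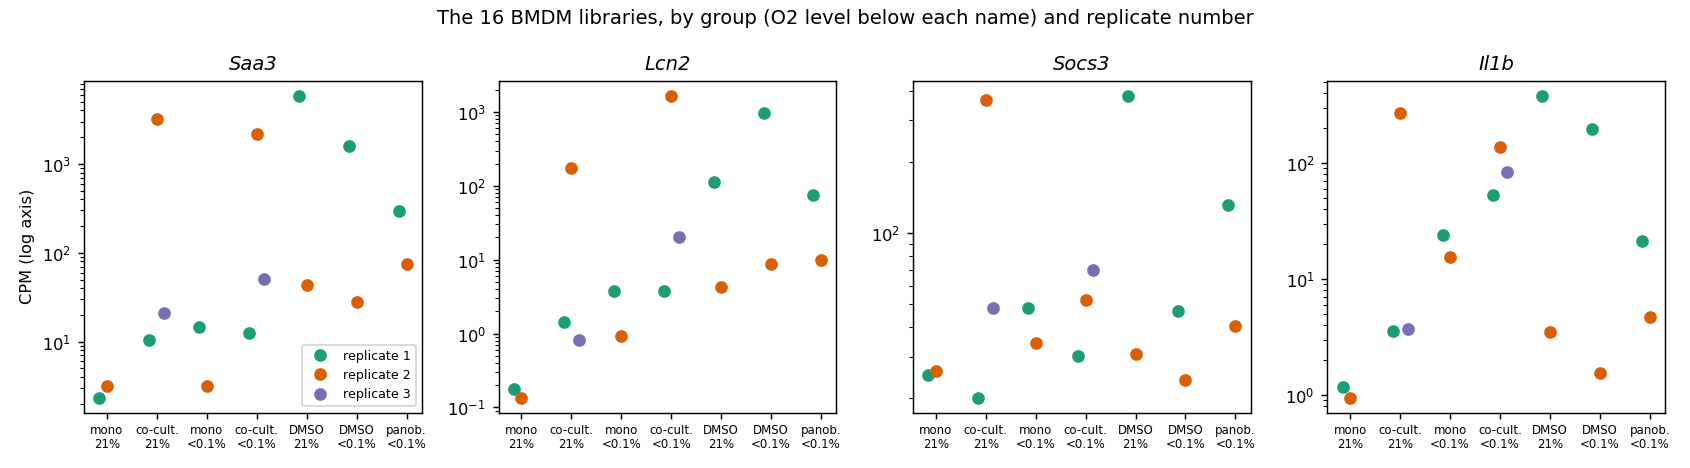
CPM on a log axis of Saa3, Lcn2, Socs3 and Il1b in the 16 BMDM libraries, by group along the horizontal axis and colored by replicate number. Co-culture replicate 2 and DMSO replicate 1 stand above the others of their groups for Saa3 and Lcn2, at 1599 to 5805 CPM of Saa3.

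Panobinostat lowered Cebpd in hypoxic BV2, from 6.27 and 10.5 CPM with DMSO to 2.93 and 3.64 CPM (log2 change -1.44, SE 0.31, edgeR adjusted p = 0.0162). The call was lost without hypoxic DMSO replicate 2 (adjusted p = 0.064) and without either panobinostat library (adjusted p = 0.13 and 0.077). Saa3 went from 2.79 and 5.42 to 7.28 and 9.92 CPM (0.98, SE 0.35, adjusted p = 0.0884) and Socs3 from 32.5 and 35.7 to 49.4 and 62.0 CPM (0.60, SE 0.21, adjusted p = 0.0774). For both genes the groups did not overlap. With the replicate number as a block, which treats these libraries as paired though no label says so, Saa3 (1.00, adjusted p = 0.0157) and Socs3 (0.59, adjusted p = 0.0212) were called as well. That made 3 of 6 members tested where 30.3% of all genes were called, against 1 of 6 where 14.6% were called without the block. Stat3 (0.24, SE 0.20, adjusted p = 0.459), Il6st (0.03, SE 0.23, adjusted p = 0.953) and Cebpb (-0.21, SE 0.23, adjusted p = 0.572) were not called. Osm, the gene of the ligand of the receptor that Osmr encodes, fell from 14.4 and 11.7 to 3.64 and 5.98 CPM (-1.56, adjusted p = 0.0392).

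In hypoxic BMDM, panobinostat changed none of 8 members by edgeR (none at an unadjusted p under 0.05, none by DESeq2), where 0% of all genes were called. Osmr stood at 64.7 and 25.0 CPM with DMSO and at 231 and 72.2 CPM with panobinostat (1.44, SE 0.76, adjusted p = 0.286), and Il6st at 224 and 259.8 CPM and at 465 and 366 CPM (0.49, SE 0.26, adjusted p = 0.286). In both genes the groups did not overlap. With the replicate block Osmr was called (1.39, adjusted p = 0.0245), the only 1 of 8 members where 13.7% of all genes were called. Osmr had been at most 0.800 CPM in BMDM monocultures of the co-culture experiment. The panobinostat-experiment libraries with Osmr also carried the stromal genes, 9 or 10 of 10 above 3 counts, with a sum of 2932 to 25751 CPM with DMSO and 11120 to 17644 CPM with panobinostat. Within the hypoxic groups the library with more Osmr had the lower stromal sum. The sums were 2932 and 14976 CPM with DMSO, replicate 1 first, and 11120 and 17644 CPM with panobinostat. In normoxia with DMSO they were 25751 and 22902 CPM, beside 49.0 and 21.2 CPM of Osmr. Col1a1, a collagen gene, alone stood at 13202 and 12666 CPM with DMSO in normoxia, against 70.0 to 152 CPM in the monocultures of the co-culture experiment, and Lum was at 0 in 3 of the 6 libraries. The 19 macrophage markers, all above 3 counts, summed to 4716 to 35744 CPM with DMSO and to 1605 to 6909 CPM with panobinostat. The part of these other transcripts in the Osmr result was not tested, and fewer cells of a type and less RNA per cell cannot be told apart in such libraries. The effect of panobinostat was not called different between BV2 and BMDM for any of 8 members by edgeR (none at an unadjusted p under 0.05, none by DESeq2), where 0.0251% of all genes were called.

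**Figure D5:**
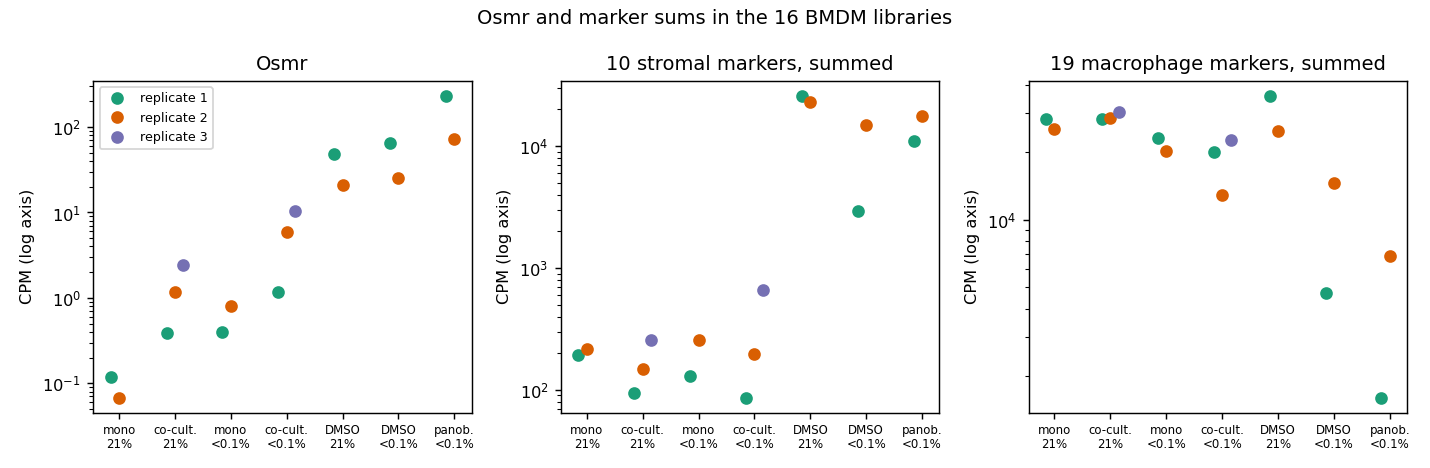
CPM on a log axis of Osmr, of 10 stromal markers summed and of 19 macrophage markers summed in the 16 BMDM libraries, by group and replicate number. Osmr and the stromal sum are higher in the panobinostat experiment, at 21.2 to 231 CPM of Osmr, than in the co-culture experiment, where Osmr is at most 10.4 CPM.

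Steap4 was at or near 0 in all cell types. It exceeded 5 counts only in the BMDM libraries with panobinostat, with 35 and 7 counts, 2.57 and 0.572 CPM, against 4 and 0 counts with hypoxic DMSO. The ratio of summed counts was 10.3 (exact 95% interval 3.74 to 39.6, counting error only), and the gene did not pass the filter for a test.

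Ligand genes differed between the cell types. Osm was carried by BV2 at 6.53 and 8.72 CPM and by BMDM at 14.4 and 14.5 CPM in normoxic monoculture, and by GL261 at 1.24 and 1.08 CPM. Hypoxia raised it to 23.3 and 22.9 CPM in BV2 (log2 change 1.65, SE 0.15, edgeR adjusted p = 1.15e-07), to 108 and 105 CPM in BMDM (3.14, SE 0.42, adjusted p = 0.000644) and to 4.33 and 3.56 CPM in GL261 (1.82, SE 0.35, adjusted p = 0.00158). In co-culture it rose with hypoxia as well, from 8.86 and 9.42 to 27.8 and 25.9 CPM in BV2 and from 12.9, 22.6 and 9.99 to 143, 59.9 and 83.7 CPM in BMDM. In the co-culture experiment Osm was thus higher in the myeloid cells and its receptor gene Osmr in GL261. In the panobinostat experiment, BMDM with DMSO in normoxia had 49.0 and 21.2 CPM of Osmr and 7.15 and 4.41 CPM of Osm. Il6 was at most 0.846 CPM in the BV2 libraries and at most 1.48 CPM in the GL261 libraries.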

How the data were processed

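Poly(A) RNA of 38 mouse libraries was analysed from 3 deposited tables of gene counts, whole numbers of reads per Ensembl gene that the authors had not normalized. Per the submitters' processing notes, the tools were Trimmomatic 0.36, STAR 2.6, SAMtools, HTSeq 0.9.1 and deepTools, with Picard 2.17.1 for 16 libraries, on the mouse build mm10. Annotation and strand setting are not given in the sources used here. Libraries were grouped by their labels. The members and all gene lists were chosen with earlier results of these data known, and the named genes are the 10 members, the called list genes with the largest changes, and the 5 genes most like Serpina3n.

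Counts were tested with edgeR 4.0.16 in R 4.3.3 (TMM scaling, quasi-likelihood F test, a minimum count of 10 and total of 15 for a gene to be tested), with 1 fit per cell type and experiment, and with 1 fit of GL261 and BV2 or of BV2 and BMDM for comparisons between cell types. P-values were Benjamini-Hochberg adjusted over all genes of the fit at a threshold of 0.05. The scripts were tested on simulated counts. DESeq2 1.42.0, other scaling and filters, the replicate number as a block, fits of the groups compared alone, fits leaving out genes that exceeded their own level 4-fold in the partner, and fits with each library left out were alternatives. After the data had been seen, subtraction of predicted partner counts and omission of the BMDM co-culture libraries numbered 2 were added. Exon lengths and gene positions came from GENCODE vM21 on GRCm38. Fold bounds used 3 counts in each library of a group where all its libraries were at 0. Exact 95% intervals cover counting error only. Intervals for ratios are given for sums of counts over a group.

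Whether replicate numbers pair libraries was checked by the correlation of their deviations from the group means. In the panobinostat experiment it was 0.15 to 0.39 over 6 BV2 pairs and 0.34 to 0.59 over 6 BMDM pairs, and in the BMDM co-cultures 0.24 to 0.46 over the 3 pairs of oxygen levels. In the panobinostat groups of 2 libraries the deviations mirror each other, so both pairs of a comparison share the same value. The labels give replicate numbers and no pairing, so the pairing is inferred from these correlations only. In fits with the replicate number as a block these libraries were treated as paired. The main fits held no block, so their p-values ignore any such pairing. The hypoxic co-culture count of 1 gene list in GL261 is not reported here.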

Additional observations from a re-analysis of the deposited data

Results flagged for a closer look

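The hypoxia change of Stat3 differed between BV2 and GL261 monocultures. The interaction term of edgeR gave a difference of 0.81 on the log2 scale (SE 0.21, adjusted p = 0.0051), and Stat3 was higher in hypoxia in 2 of 2 BV2 and in 2 of 2 GL261 libraries. Without GL261 hypoxic monoculture replicate 2 the difference was 0.52 (adjusted p = 0.0619).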

How the results depend on the processing

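The number of members called stayed within 1.5 times the main count in 243 of 307 alternative results and moved in 64. Without a filter beyond 1 count it went from 2 to 5 in GL261 normoxic co-culture against monoculture, and in BMDM from 1 to 6 and from 1 to 7 in normoxic and hypoxic co-culture, from 1 to 7 and from 3 to 6 for hypoxia in monoculture and co-culture, from 0 to 2 for their difference, from 0 to 3 with DMSO and from 0 to 6 with panobinostat. It also went from 1 to 4 for BV2 against GL261 and from 0 to 1 for panobinostat in BV2 against BMDM. With a mean of at least 5 CPM it went from 2 to 1 in GL261 normoxic co-culture, from 3 to 0 in BV2 hypoxic co-culture and from 7 to 4 for hypoxia in BV2 co-culture. With the replicate block it went from 2 to 4 in GL261 normoxic co-culture, from 1 to 2 in BMDM hypoxic co-culture, from 1 to 4 for hypoxia in BMDM monoculture, from 1 to 3 for panobinostat in BV2, from 0 to 1 for panobinostat in BMDM and from 1 to 2 for BV2 against GL261. In the DMSO comparisons and in the hypoxia comparison of the BMDM co-cultures, also treated as paired, the block changed no member's call. The other libraries were not taken as paired, though the GL261 correlations below overlap the 0.15 to 0.39 of the BV2 pairs of the panobinostat experiment. Over each whole fit, same-numbered libraries correlated at 0.043 to 0.37 in GL261, -0.081 to 0.17 in BV2 and -0.0019 to 0.46 in BMDM.

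The fit without partner-high genes leaves fewer genes tested, and in BV2 and BMDM it takes out Serpina3n and Osmr themselves. In it the number of members called went from 2 to 1 in GL261 and from 3 to 1 in BV2 in normoxic co-culture, from 3 to 1 in BV2 hypoxic co-culture and from 1 to 0 in both BMDM co-cultures. With partner counts subtracted it went from 2 to 1 in GL261 normoxic co-culture. In fits of only the 2 groups it went from 4 to 2 in GL261 hypoxic co-culture, from 1 to 7 and from 3 to 1 for hypoxia in BMDM monoculture and co-culture and from 1 to 2 for panobinostat in BV2. DESeq2 gave 2 in place of 1 in both BMDM co-cultures and for hypoxia in BMDM monoculture, where leaving out both co-culture libraries numbered 2 also gave 2. For the other changes the cause was not tested.

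With each library left out, the counts ranged over 0 to 2 and 3 to 5 in GL261 normoxic and hypoxic co-culture, 3 to 5 and 5 to 6 for hypoxia in GL261 monoculture and co-culture, 1 to 4 and 2 to 3 in BV2 co-culture, 3 to 5, 4 to 7 and 3 to 4 for hypoxia in BV2 monoculture, co-culture and DMSO, 0 to 1 for panobinostat in BV2, 0 to 1 and 0 to 2 in BMDM co-culture, 0 to 3 and 1 to 3 for hypoxia in BMDM monoculture and co-culture, and 1 to 2 for BV2 against GL261. They were 0 to 0 for BMDM with DMSO or panobinostat, for the difference between hypoxia effects in co-culture and monoculture in BV2 and in BMDM, and for panobinostat in BV2 against BMDM. For the same difference in GL261 they were not run. The Saa3 change with hypoxia in BMDM co-culture reversed to 5.80 without normoxic replicate 2 and was -5.03 without hypoxic replicate 2. Over all genes, DESeq2 called 2078 in place of 72 for hypoxia with DMSO in BMDM and 2023 in place of 0 for panobinostat, the replicate block 2127 and 2044, and the main fit 78 in GL261 normoxic co-culture against 13 with partner counts subtracted.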
